A study of Mus musculus with 24 samples.

Results

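Brain transcripts of mice labelled Nox2 knockout were set against those of wild type mice after repeated systemic lipopolysaccharide (LPS), the endotoxin of gram-negative bacteria. The comparison takes 12 of the 24 libraries of the series, 6 from each genotype, and covers the autosomal genes together with Cybb, the targeted gene on the X chromosome. Of 14380 genes with enough counts to be tested, 13890 belong to this set. The other 490 lie on other chromosomes or could not be placed, and are not described.

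Both groups were 3-month-old mice with the strain label C57BL/6J. Each mouse had an intraperitoneal injection of 100 µl once a day on 4 days, with LPS from Salmonella abortus equi at 1 µg per g of body weight. The wild type and knockout mice that received PBS, the vehicle, on the same schedule (6 samples each) served as the reference without LPS. The labels number 6 samples per group and the protocol reads as 1 hemisphere per mouse. They do not give the disrupted part of Cybb, the source of the 2 mouse lines or whether littermates were used. RNA came from the left hemisphere, so a lower level cannot be told apart into fewer cells of a type or less RNA per cell. Libraries were made with a 3′ tag kit, and levels are given as CPM, counts per 1000000 counts of a library after scaling by TMM factors. Differences are log2 fold changes, knockout minus wild type, with standard errors (SE).

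Cybb encodes gp91phox, also called Nox2, the membrane subunit of the phagocyte NADPH oxidase that passes electrons from NADPH to oxygen and so makes superoxide. It works together with p22phox (Cyba), cytosolic proteins such as p47phox (Ncf1) and p40phox (Ncf4), and a Rac GTPase. In the brain the enzyme is known chiefly from microglia, and also from infiltrating myeloid cells and vessel walls. The title of the study concerns gp91phox in neurodegeneration after repeated LPS, and the comparison asks how the LPS-treated hemisphere differs when the gene is labelled as knocked out.

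Total counts per library ran from 3080539 to 4257685 in wild type and from 2595387 to 4578806 in knockout, and a two-sided exact permutation test of the means over 924 splits gave p = 0.978. Wild type replicates 1 and 2 stood apart from wild type replicates 3 to 6 after LPS. They had the lowest Cybb, and both lay under all 4 others for 48 of the 112 genes lower in knockout (42.9%), against 13.2% of all autosomal genes tested. Knockout LPS replicate 4 carried pituitary transcripts.

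Cybb itself was higher in the libraries labelled knockout. After LPS the 6 wild type libraries held 15.7 to 34.0 CPM with a median of 24.8, and the 6 knockout libraries 67.5 to 77.3 CPM with a median of 72.0. The groups did not overlap, and the difference was 1.52 ± 0.11 (edgeR adjusted p = 7.35e-14). Under PBS it was 5.42 ± 0.18, with 0.853 to 2.50 CPM in wild type. The gap between genotypes was smaller after LPS, by 3.90 on the log2 scale (interaction -3.90 ± 0.25, adjusted p = 2.34e-15). LPS raised Cybb by 3.99 in wild type, and the change in knockout was 0.09. The labels do not say which part of the gene is disrupted, so tags at its 3′ end do not check the deletion. Why the level was higher was not tested, and in what follows knockout means the libraries labelled so.

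Of the tested partners of gp91phox, Rac2 alone was called. Of 8 tested members of the NADPH oxidase list, Cybb was higher, Rac2 was lower and 6 were not called. Rac2, the Rac GTPase of blood cells, ranged from 10.025 to 18.6 CPM in wild type (median 17.0) and from 4.71 to 14.3 CPM in knockout (median 9.54). The ranges overlapped, and the difference was -0.72 ± 0.18 (adjusted p = 0.029). When each LPS library was dropped in turn, the call was lost in 7 of 12 fits, and adjusted p reached 0.103 without knockout replicate 3. Cyba had a median of 27.0 CPM in wild type and 24.3 in knockout, with a difference of -0.20 ± 0.12 (adjusted p = 0.558). Ncf1 differed by -0.22 ± 0.14 (adjusted p = 0.572) and Ncf4 by -0.87 ± 0.31 (adjusted p = 0.196).

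Across the transcriptome the differences were mostly small and mostly downward. Of the 13890 genes, 146 were called at an adjusted p under 0.05 (1.05% of those tested). Of these, 34 were higher in knockout (0.245%) and 112 lower (0.806%). The median difference was 0.40 among the 33 autosomal genes called higher and -0.44 among those called lower, against 0.00 over all genes tested. Only 6 autosomal genes were higher by more than 1 on the log2 scale and 14 lower by more than 1. In 31 of the genes called lower every knockout library lay below every wild type library, and in 13 of those called higher, Cybb included, every one lay above. Over all 13890 genes the first pattern was found in 55 (0.396%) and the second in 34 (0.245%).

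**Figure D1:**
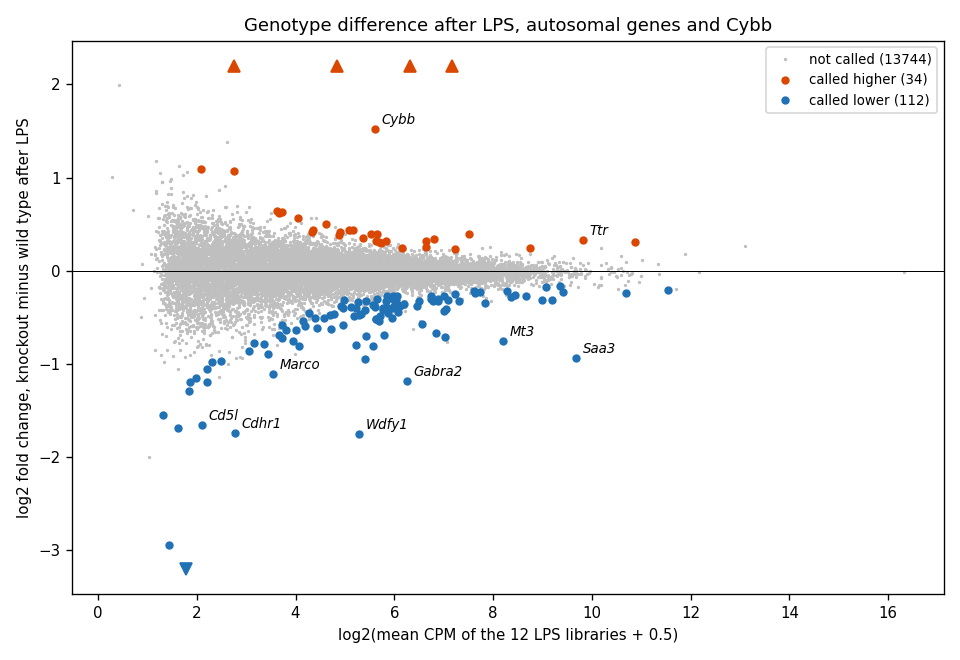
Each point is a gene, with log2(mean CPM of the 12 LPS libraries + 0.5) on the horizontal axis and the log2 fold change between genotypes after LPS on the vertical axis. Of 13890 genes, 34 are called higher and 112 called lower, and triangles mark 5 called genes that lie beyond the vertical axis.

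The number of calls depended on single libraries. With each of the 12 LPS libraries left out in turn, 16 to 68 genes were called higher and 52 to 208 lower, with the smallest counts of lower genes without wild type replicate 4 and the largest without wild type replicate 2. Without wild type replicates 1 and 2 together, 155 genes were higher and 374 lower, and without knockout replicate 4 the counts were 20 and 94. In all 12 of these fits 7 genes called higher and 42 called lower held. The genes below were not chosen by this measure, and many of them lie outside those 49.

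A group of genes differed between genotypes under PBS too. Tmem181b-ps, a transcribed pseudogene on chromosome 17 whose reads may be shared with its relatives, had 0 counts over the 6 wild type LPS libraries and 282 over the knockout libraries. If the wild type group is given 3 counts, the limit that 0 allows, it was at least 93.7-fold higher in knockout. Under PBS its counts were 1 and 272.

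Wdfy1, on chromosome 1, encodes an endosomal protein with WD repeats that has been tied to Toll-like receptor signalling. Like Tmem181b-ps, it is on the list of genes that mark differences among C57BL/6 substrains. It ranged from 55.9 to 62.8 CPM in wild type (median 59.0) and from 14.4 to 21.3 CPM in knockout (median 17.2). The groups were far apart, by -1.76 ± 0.08 (adjusted p = 3.34e-20), and under PBS the difference was -1.78 ± 0.08. Gabra2, on chromosome 5, encodes a subunit of the GABA-A receptor and is known to differ in level among C57BL/6 substrains. Its wild type libraries held 98.7 to 123 CPM (median 103) and its knockout libraries 42.2 to 53.7 CPM (median 45.7). The difference was -1.18 ± 0.07 after LPS (adjusted p = 8.3e-17) and -1.15 ± 0.07 under PBS.

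Ndn, the paternally expressed necdin gene on chromosome 7, ranged from 153 to 174 CPM in wild type (median 160.2) and from 95.3 to 104 CPM in knockout (median 99.5). It differed by -0.70 ± 0.05 (adjusted p = 5.04e-13), with -0.72 ± 0.05 under PBS. Mt3, on chromosome 8, encodes the brain metallothionein that binds zinc and copper. It ranged from 331 to 415 CPM in wild type (median 368) and from 182 to 250.1 CPM in knockout (median 220.3). The difference was -0.76 ± 0.07 after LPS (adjusted p = 1.05e-09) and -0.48 ± 0.08 under PBS (adjusted p = 0.000258), and the interaction did not pass (adjusted p = 0.37).

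None of these genes changed its genotype difference with LPS beyond the test, with interaction adjusted p of 0.809 for Tmem181b-ps, 0.97 for Wdfy1, 0.958 for Gabra2 and 0.963 for Ndn. Each of these genes was called in all 12 fits with a library left out. All libraries carry the same strain label, and with these labels the knockout allele and any other difference between the mouse lines cannot be told apart.

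**Figure D2:**
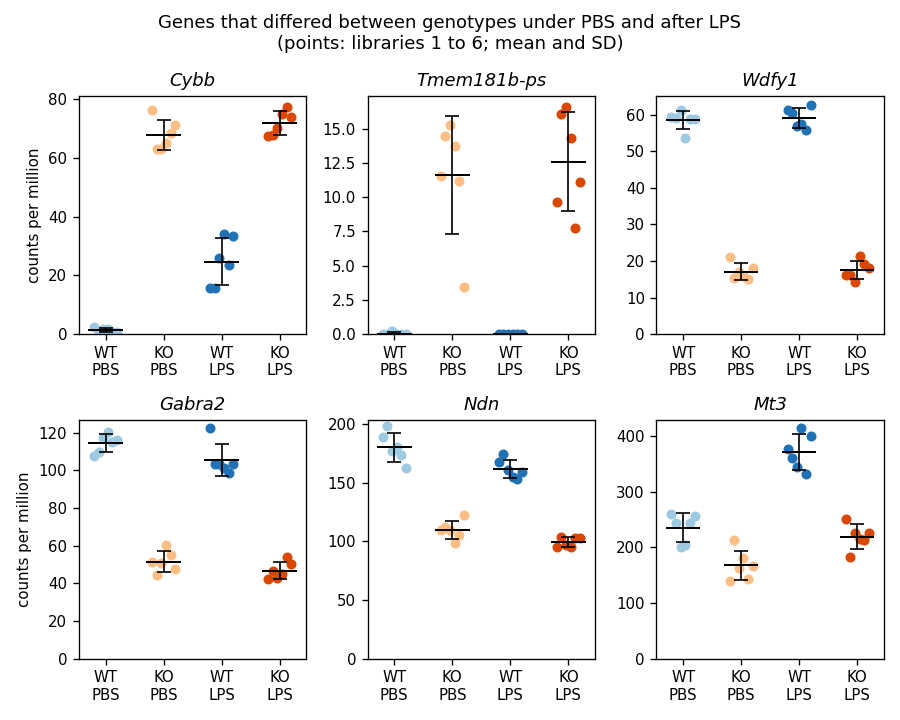
Points are the 6 libraries of each group in CPM, with the mean as a line and the SD as a bar. Wdfy1, Gabra2 and Ndn are lower in knockout by about the same amount under PBS and after LPS, Mt3 is lower in both, and Cybb in wild type moves from 0.853 to 2.50 CPM under PBS to 15.7 to 34.0 CPM after LPS.

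Genes of the vessel wall were among those lower in knockout after LPS. Of 32 tested genes of the endothelial identity list, 8 were lower and 0 higher, 27 were below 0, and the median was -0.27. Over all 13890 genes tested, 51.5% were below 0 and 0.806% were called lower. Those shares are the background for this list and the lists that follow. Of 22 endothelial activation genes 3 were lower and 0 higher, with a median of -0.24. Of 14 genes of pericytes and smooth muscle 2 were lower and 0 higher, and of 27 of fibroblasts and matrix 3 and 0. Under PBS the medians of these lists were -0.05, -0.07, -0.08 and -0.13.

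Vwf, the von Willebrand factor that endothelial cells store and release to bind platelets, ranged from 48.0 to 62.8 CPM in wild type (median 50.8) and from 25.6 to 37.7 CPM in knockout (median 32.5). No knockout library reached the lowest wild type library, and Vwf differed by -0.70 ± 0.09 (adjusted p = 1.33e-06). LPS raised it by 2.94 in wild type and by 2.65 in knockout. Under PBS the genotypes differed by -0.41 ± 0.17 (adjusted p = 0.471).

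Col4a1 and Col4a2 encode the paired collagen chains of the vascular basement membrane and lie head to head on chromosome 8. Their shared start region is shown because both members of the pair were lower. The window of 300 bases around the RefSeq start of Col4a1 (GRCm38.p6, chr8:11312777-11313076, minus strand, 250 bases before the start and 50 after it) is printed 5′ to 3′. Capitals mark the 78 bases that lie in the equivalent window of Col4a2 too, on the opposite strand.
Col4a1: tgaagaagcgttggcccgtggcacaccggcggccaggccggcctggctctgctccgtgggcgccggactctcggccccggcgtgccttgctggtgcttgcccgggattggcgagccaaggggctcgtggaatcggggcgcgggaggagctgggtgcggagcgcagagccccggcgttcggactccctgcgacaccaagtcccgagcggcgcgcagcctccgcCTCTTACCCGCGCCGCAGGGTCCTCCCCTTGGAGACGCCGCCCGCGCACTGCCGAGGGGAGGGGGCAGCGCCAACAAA
Col4a1 ranged from 55.6 to 78.6 CPM in wild type (median 68.1) and from 34.4 to 46.9 CPM in knockout (median 43.3). These ranges did not meet, and the difference was -0.69 ± 0.10 (adjusted p = 2.42e-05). Col4a2 ranged from 29.5 to 35.7 CPM in wild type (median 30.4) and from 18.1 to 29.2 CPM in knockout (median 22.1). It too did not overlap and differed by -0.46 ± 0.11 (adjusted p = 0.0265). Col4a2 held its call in 7 of the 12 fits, and its adjusted p reached 0.109 without knockout replicate 3. The annotated Col4a1 and Col4a2 transcripts overlap at their 5′ ends, and tags at the 3′ ends lie far from that overlap.

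Esam, an adhesion molecule of endothelial tight junctions, had 58.6 to 84.5 CPM in wild type (median 75.4) and 46.2 to 62.7 CPM in knockout (median 49.4). Only the highest knockout library reached into the wild type range, and the difference was -0.51 ± 0.08 (adjusted p = 0.000195). Slc2a1, the glucose transporter of the blood-brain barrier, ranged from 117 to 149.6 CPM in wild type and from 97.2 to 111 CPM in knockout. It was lower by a smaller amount, -0.30 ± 0.06 (adjusted p = 0.00504), and by nearly the same under PBS (-0.29 ± 0.07, adjusted p = 0.0719). Rgs5, a regulator of G protein signalling in pericytes, did not overlap between the groups, with 168 to 184 CPM in wild type and 122 to 156 in knockout. Its difference was -0.32 ± 0.07 (adjusted p = 0.00834). Fbln5, an elastic fibre protein, differed by -0.60 ± 0.13 (adjusted p = 0.0107).

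Other called members of the endothelial lists were less steady. Cldn5, the claudin that seals the blood-brain barrier, differed by -0.43 ± 0.11 (adjusted p = 0.0376), Pecam1 by -0.36 ± 0.09 (adjusted p = 0.0412) and Emcn, a sialomucin of venous and capillary endothelium, by -0.58 ± 0.15 (adjusted p = 0.0412). They held in 4, 3 and 3 of 12 fits, and their highest adjusted p were 0.125 without knockout replicate 5, 0.201 without wild type replicate 4 and 0.128 without knockout replicate 3. Abcb1a, the drug efflux pump of brain capillaries, differed by -0.31 ± 0.08 (adjusted p = 0.0272) and held in 7 fits, with 0.0869 without knockout replicate 4. Abcb1a also missed the threshold without wild type replicates 1 and 2 (adjusted p = 0.0578), and Cldn5 with DESeq2 (adjusted p = 0.238). The count of called endothelial identity genes ran from 2, without knockout replicate 3 or wild type replicate 4, to 10 over the 12 fits. It was 13 without wild type replicates 1 and 2 and 3 without knockout replicate 4.

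From genes outside the naming rule that held in all 12 fits, 3 further endothelial genes were chosen after their values were seen. They are examples and not a full count. Ctla2a ranged from 48.6 to 69.1 CPM in wild type and from 21.2 to 43.7 in knockout, with no overlap (-0.81 ± 0.11, adjusted p = 9.83e-06). Clec14a, a lectin of sprouting endothelium, differed by -0.81 ± 0.14 (adjusted p = 0.000886), and Igfbp7, a secreted binding protein of vessel basement membrane, by -0.57 ± 0.08 (adjusted p = 1.9e-05). The summed level of the endothelial identity list ranged from 2187 to 2447 CPM in wild type and from 1908 to 2186 CPM in knockout. The highest knockout sum, in replicate 6, fell just short of the lowest wild type sum, in replicate 2. Whether the share of endothelial cells in the tissue took part in these differences was not tested.

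Some acute phase and complement genes were lower in knockout after LPS. Of 11 acute phase genes tested 3 were lower and 0 higher, with a median of -0.43 and 10 below 0. The 3 were Saa3, Lrg1 (-0.64 ± 0.15, adjusted p = 0.0247) and Cp, the copper carrier ceruloplasmin (-0.38 ± 0.10, adjusted p = 0.0461). With DESeq2 1 of the 11 was lower, and without wild type replicates 1 and 2, 6 were. The calls of Lrg1 and Cp were lost in some fits with a library left out. The highest adjusted p were 0.0987 for Lrg1 without wild type replicate 6 and 0.141 for Cp without knockout replicate 5. Of 15 complement genes 3 were lower and 0 higher, with a median of -0.29 and 14 below 0, and 6 were lower without wild type replicates 1 and 2. Under PBS the medians of the 2 lists were 0.10 and -0.16.

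Saa3, a serum amyloid A gene induced strongly by endotoxin, had one of the highest levels among the genes called. Its RefSeq promoter is shown because Saa3 was a large autosomal difference at high level, and because one run of letters in it, in capitals, matches the C/EBP-like motif TTGCNNAA on the opposite strand. The window is chr7:46715627-46715926 on the minus strand (GRCm38.p6), 250 bases before the start to 50 after it, and the run lies 99 to 92 bases before the start.
Saa3: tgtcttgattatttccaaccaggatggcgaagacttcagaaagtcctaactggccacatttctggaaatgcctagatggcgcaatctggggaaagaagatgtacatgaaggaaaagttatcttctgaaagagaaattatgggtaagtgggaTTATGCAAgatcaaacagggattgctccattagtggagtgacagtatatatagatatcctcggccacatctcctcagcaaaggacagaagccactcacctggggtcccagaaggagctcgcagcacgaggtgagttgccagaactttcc
Saa3 ranged from 735 to 1461 CPM in wild type (median 1127) and from 218 to 922 CPM in knockout (median 542). The 2 highest knockout libraries lay within the wild type range, and the difference was -0.94 ± 0.17 (adjusted p = 0.00172). The call held in all 12 fits with a library left out but not with DESeq2, which gave the same direction (-0.95, adjusted p = 0.279). LPS raised Saa3 by 9.24 in wild type and by 8.16 in knockout, and the interaction did not pass (-1.08 ± 1.05, adjusted p = 0.788).

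Letters of known regulatory motifs were counted in promoters of called genes and in all promoters, with 1 promoter per gene and both strands searched. Of the 112 genes lower in knockout 81 had a RefSeq promoter in the table, and 6 of these (7.41%) held TTGCNNAA, against 7.74% of 10066 promoters of tested autosomal genes. The NF-kB-like run GGGANTTTC was in 1 (1.24%) against 0.934%, and the PU.1-like run GAGGAAGT in 5 (6.17%) against 2.75%. The GC box GGGCGG was in 40 (49.4%) against 65.0%. Of the 33 autosomal genes called higher 21 had a promoter, and 5 of these (23.8%) held TTGCNNAA, 11 (52.4%) the GC box and 0 the other 2 runs. These are matches of letters in a window of 300 bases and show no binding.

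C4b, the fourth complement component, ranged from 39.0 to 51.4 CPM in wild type (median 43.7) and from 26.3 to 38.0 CPM in knockout (median 32.2). The groups did not overlap, and the difference was -0.47 ± 0.09 (adjusted p = 0.00378). C1qa, a chain of the C1q recognition complex made by microglia, had medians of 263 and 204 CPM, with 207 to 303 in wild type and 165 to 224 in knockout. It differed by -0.35 ± 0.07 (adjusted p = 0.00378). C3, the central complement component, differed by -0.61 ± 0.14 (adjusted p = 0.018). Its call was lost in 4 of 12 fits, with an adjusted p of 0.0848 without wild type replicate 4, and knockout replicate 1, at 26.2 CPM, lay above the wild type median.

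Genes that mark myeloid cells held a few calls as well. Of 16 genes of monocytes and border macrophages 3 were lower and 0 higher, with a median of -0.50 and 15 below 0. They were Cd5l, Marco and Vim, the last an intermediate filament gene of many cell types (-0.33 ± 0.09, adjusted p = 0.0427, and 0.141 without knockout replicate 2). Of 11 neutrophil genes 1 was lower and 0 higher, with a median of -0.52 and all 11 below 0. The 1 was Mmp9, a matrix protease that other cells make too (-0.86 ± 0.21, adjusted p = 0.0211, and 0.107 without wild type replicate 3). Of 23 activated microglia genes 2 were lower, 22 were below 0, and the median was -0.19. Of 19 homeostatic microglia genes 2 were lower, with a median of -0.08. Without wild type replicates 1 and 2 the counts of lower genes were 4 for monocytes and border macrophages, 5 for neutrophils, 8 for activated microglia and 2 for homeostatic microglia. With limma-voom 0 neutrophil genes were lower, and Vim missed the threshold without wild type replicates 1 and 2 (adjusted p = 0.0668) and with DESeq2 (0.0573).

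**Figure D3:**
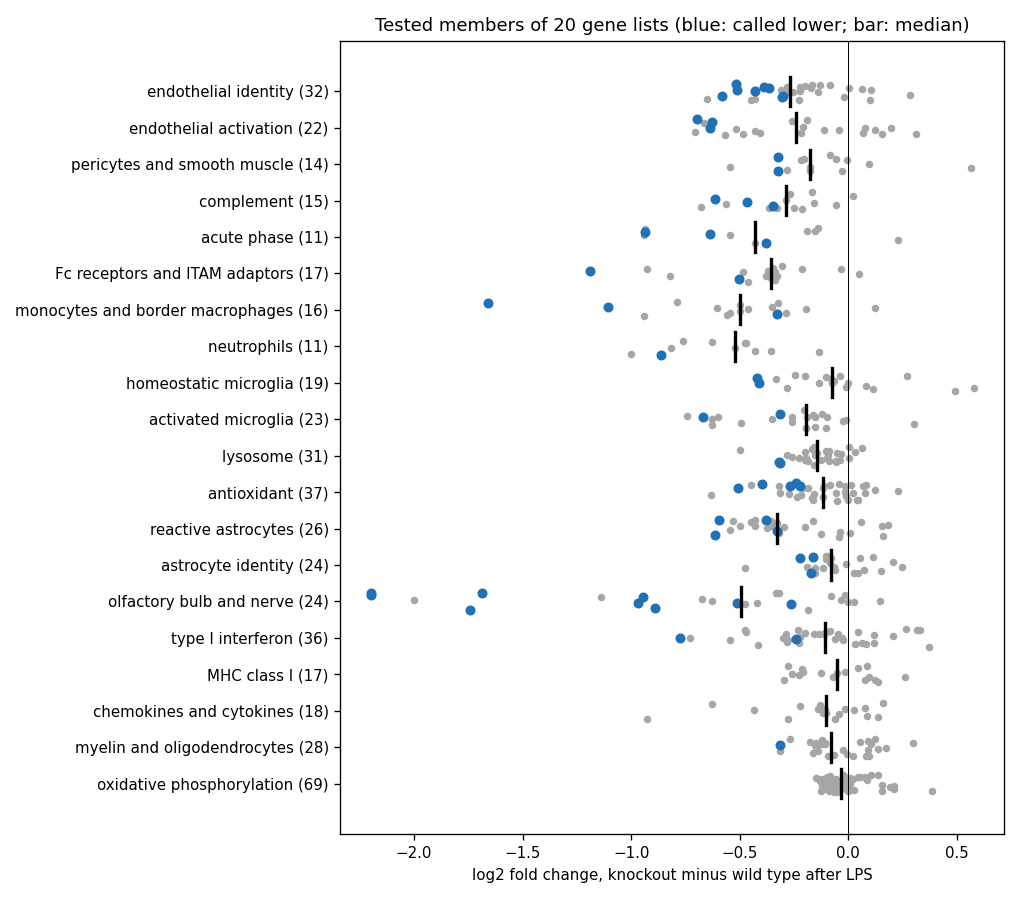
Each point is a tested gene, placed by its log2 fold change between genotypes after LPS. Rows are 20 gene lists with the number tested in brackets, blue points are called lower, grey points are not called, and bars are medians. The 2 points of the olfactory list at the left edge lie beyond it. All 20 lists shown have medians below 0, from -0.52 for neutrophils to -0.03 for oxidative phosphorylation. Lists with medians above 0, such as choroid plexus and ependyma (0.12), are not shown.

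Lyz2, the lysozyme of macrophages and activated microglia, ranged from 89.4 to 192 CPM in wild type (median 139) and from 71.8 to 109 CPM in knockout (median 84.6). The ranges overlapped through wild type replicate 2, the lowest of its group, and the difference was -0.67 ± 0.12 (adjusted p = 0.000886). Without wild type replicates 1 and 2 it was -0.86, and with DESeq2 it was -0.67 and missed the threshold (adjusted p = 0.0582). Cd5l, a protein secreted by tissue macrophages, ranged from 2.62 to 9.04 CPM in wild type and from 0.673 to 4.07 in knockout, with a difference of -1.66 ± 0.32 (adjusted p = 0.00288). Marco, a macrophage scavenger receptor for bacteria, differed by -1.11 ± 0.24 (adjusted p = 0.0106). Its call was lost without wild type replicate 3 alone (adjusted p = 0.0794), and knockout replicate 1 stood at 14.8 CPM, at the wild type median.

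Among genes of resident microglia, Cx3cr1, the fractalkine receptor, had medians of 156 CPM in wild type and 109.7 in knockout. It differed by -0.41 ± 0.09 (adjusted p = 0.00934), and its adjusted p was 0.0502 without wild type replicate 4. Ctsd encodes the lysosomal protease cathepsin D, which other cell types express too. It ranged from 484 to 655 CPM in wild type (median 581) and from 409 to 485 CPM in knockout (median 465). The difference was -0.31 ± 0.06 (adjusted p = 0.00114), against 0.08 ± 0.06 under PBS. LPS raised Ctsd by 1.05 in wild type and by 0.65 in knockout, and the interaction of -0.40 ± 0.08 came close to the threshold without passing it (adjusted p = 0.053). Summed over the list, homeostatic microglia genes stood at 2319 to 2863 CPM in wild type and 2232 to 2486 in knockout. Summed neutrophil genes ran from 210.3 to 860.3 CPM and from 134.9 to 467.5 CPM, and the part of cell numbers in these values was not tested.

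**Figure D4:**
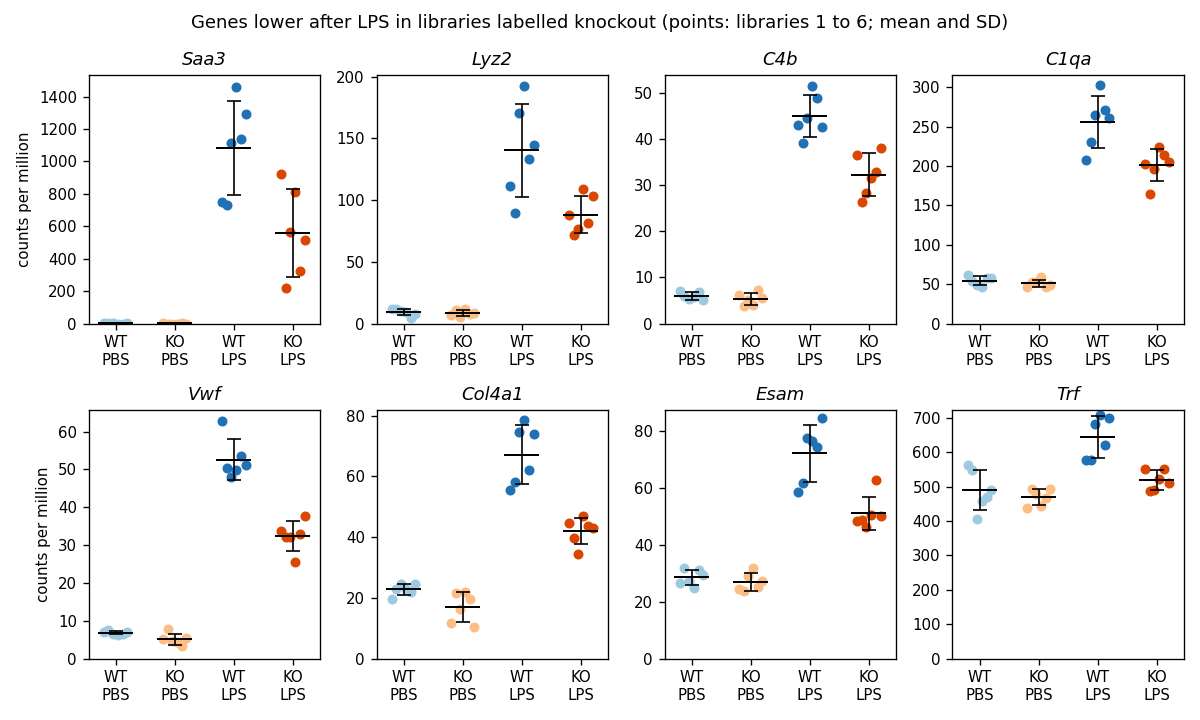
Points are the 6 libraries of each group in CPM, with the mean as a line and the SD as a bar, for 8 genes called lower in knockout after LPS. Vwf, Col4a1, C4b and Trf do not overlap between the LPS groups, and the LPS groups of Saa3, Lyz2, C1qa and Esam overlap.

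Of 18 chemokines and cytokines 0 passed in either direction, with a median of -0.10, and 0 of 17 major histocompatibility class I genes passed, with a median of -0.05. In these lists Ccl6, a chemokine, stood at -0.63 ± 0.19 (adjusted p = 0.108) and B2m, the light chain of class I, at -0.26 ± 0.07 (adjusted p = 0.0653). Without wild type replicates 1 and 2, 3 chemokine genes and 5 class I genes were lower. Of 36 type I interferon genes 2 were lower. Ly6e, one of them, did not overlap between groups and differed by -0.24 ± 0.05 (adjusted p = 0.0101). Of 14 genes listed with the interferon-inducible GTPases 1 was higher, Ifi27l2a, which is interferon-inducible and no GTPase, and 3 were below 0.

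The antioxidant list holds genes that detoxify peroxides and electrophiles, and others, such as Ucp2, that do not. In it 5 of 37 tested genes were lower and 0 higher, with a median of -0.11 and 28 below 0. Without wild type replicates 1 and 2, 8 were lower, and without knockout replicate 4, 2 were. Prdx6, a peroxiredoxin of astrocytes that also acts on phospholipid peroxides, ranged from 399 to 498 CPM in wild type (median 439.6) and from 313 to 403 CPM in knockout (median 369). It differed by -0.27 ± 0.06 (adjusted p = 0.00639), and under PBS by 0.01 ± 0.06. The other 4 calls, Prdx1 (-0.22 ± 0.06), Gpx3 (-0.40 ± 0.11), Gstm1 (-0.24 ± 0.06) and Ucp2 (-0.51 ± 0.12), held in 3, 3, 7 and 8 of 12 fits. Their highest adjusted p were 0.204 and 0.102 without wild type replicate 4 for Prdx1 and Ucp2, and 0.145 and 0.0832 without wild type replicate 6 for Gpx3 and Gstm1.

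Of 26 reactive astrocyte genes 4 were lower and 0 higher, with a median of -0.33. They were C3, Cp, Fbln5 and Vim, genes that other cell types express too, and 7 of the 26 were lower without wild type replicates 1 and 2 and 2 with DESeq2. Of 24 astrocyte identity genes 3 were lower and 0 higher, with a median of -0.08, and without knockout replicate 4 0 were lower. The identity genes called were abundant and differed little: S100b by -0.22 ± 0.06 (adjusted p = 0.0282), Slc1a3, a glutamate transporter, by -0.17 ± 0.04 (adjusted p = 0.0329) and Clu, clusterin, by -0.16 ± 0.04 (adjusted p = 0.0361). They held in 6, 4 and 6 of 12 fits, and the highest adjusted p were 0.111 without wild type replicate 6, 0.132 without wild type replicate 4 and 0.124 without knockout replicate 2. Trf, the iron carrier transferrin made by oligodendrocytes, did not overlap between groups, with 577 to 709 CPM in wild type and 488 to 552 in knockout. Its difference was -0.31 ± 0.06 (adjusted p = 0.00243), held in all 12 fits. Of 20 genes of iron and haem Trf and Cp were lower and 0 higher, with a median of -0.26.

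Of 24 tested genes of the olfactory bulb and nerve 9 were lower in knockout and 0 higher, with a median of -0.49. The count ran from 4, without wild type replicate 3, to 14, without wild type replicate 1 or 2, when each LPS library was left out in turn, and it was 16 without wild type replicates 1 and 2, 6 without knockout replicate 4 and 3 with limma-voom. The median under PBS was -0.53. S100a5, a calcium-binding protein of olfactory sensory neurons, had 30 to 37 counts in wild type replicates 3 to 6, 0 in replicates 1 and 2, and 2 counts over the 6 knockout libraries. Its ratio was 67.2-fold lower in knockout (exact 95% interval 18.2 to 561, counting error only). S100a5 and Cdhr1 missed the threshold with limma-voom (adjusted p = 0.423 and 0.129). Cdhr1, a cadherin-related protein of mitral cells, ranged from 2.98 to 14.1 CPM in wild type and from 2.17 to 4.35 in knockout (-1.74 ± 0.36, adjusted p = 0.00586). Gng4, a G protein subunit of bulb granule cells, ranged from 29.8 to 69.7 CPM in wild type (median 63.5) and reached at most 34.1 in knockout (median 29.0) (-0.95 ± 0.16, adjusted p = 0.000567). Wild type replicates 1 and 2 were thus at knockout levels in S100a5. The summed list ran from 1596 to 1836 CPM in wild type and from 1537 to 1623 in knockout, with the 2 lowest wild type sums in replicates 1 and 2. How much olfactory tissue each sample held was not tested.

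Of 4 tested pituitary genes 2 were called higher through a single library. Gh, growth hormone, had 6460 counts in knockout LPS replicate 4 and 10 to 38 in the other 5 knockout libraries, and Pomc 1077 against 5 to 45. Without that library the adjusted p were 0.998 for Gh and 0.949 for Pomc, and Pomc also missed the threshold without wild type replicate 4 (adjusted p = 0.0539).

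Autosomal genes called higher in knockout were fewer, and their median difference was 0.40, against -0.44 for genes called lower. Ttr, the transthyretin gene of the choroid plexus, ranged from 621 to 1001 CPM in wild type (median 782) and from 947 to 1058 CPM in knockout (median 1019). All 6 knockout libraries lay above the wild type mean, and Ttr differed by 0.33 ± 0.07 (adjusted p = 0.00934). The summed choroid plexus and ependyma list ran from 1193 to 1684 CPM in wild type and from 1599 to 1749 CPM in knockout, and Ttr was the only one of its 19 tested genes called. Zfc3h1, a component of the nuclear RNA surveillance complex, differed by 0.44 ± 0.10 (adjusted p = 0.0106), with 22.7 to 36.0 CPM in wild type and 35.3 to 47.8 in knockout. Rmst, a long noncoding RNA, differed by 0.41 ± 0.09 (adjusted p = 0.0118), and its adjusted p was 0.0581 without wild type replicate 3. Scd1, the stearoyl-CoA desaturase, differed by 0.32 ± 0.07 (adjusted p = 0.0101), with 0.0507 without knockout replicate 3.

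Snhg11 and Neat1, noncoding RNAs kept in the nucleus, lie outside the naming rule and were chosen after their values were seen. Snhg11 ranged from 1401 to 1908 CPM in wild type and from 2026 to 2097 CPM in knockout, with no overlap (0.31 ± 0.06, adjusted p = 0.00228). Neat1, the scaffold of paraspeckles, differed by 0.40 ± 0.09 (adjusted p = 0.0175), and its adjusted p was 0.072 without knockout replicate 6 and 0.0904 with DESeq2. Ifi27l2a and Snx22 rose by more than 1 in the fit of all libraries, 1.07 ± 0.27 (adjusted p = 0.0307) and 1.09 ± 0.28 (adjusted p = 0.0413), at medians of 8.83 and 5.48 CPM in knockout. Each held in 4 of 12 fits, with 0.0981 without knockout replicate 4 and 0.111 without knockout replicate 6. Without wild type replicates 1 and 2 both missed the threshold (0.0597 and 0.0894).

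The neuronal and housekeeping lists given here held 0 or 1 call each. Over all genes tested 1.05% were called, so such counts do not set these lists apart. Of 69 oxidative phosphorylation genes, 31 proteasome genes, 21 circadian clock genes and 30 heat shock genes, 0 passed in either direction, with medians of -0.03, -0.01, 0.04 and -0.06, respectively. Of 34 GABA and glutamate receptor genes Gabra2 was the only one called. Of 28 myelin and oligodendrocyte genes Trf was the only one called, and of 65 ribosomal protein genes Rplp0 was (-0.28 ± 0.06, adjusted p = 0.00934), with 0.0521 without wild type replicate 3.

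The PBS groups, which are other samples, show which of these differences were present without LPS. There 17 of 13890 genes were called (0.122%), Cybb and 16 autosomal genes, and 11 (without wild type PBS replicate 3) to 29 (without knockout PBS replicate 1) when each PBS library was left out in turn. Of the 145 autosomal genes called after LPS, 9 were called under PBS too, among them Tmem181b-ps, Wdfy1, Gabra2, Ndn, Mt3, S100a5, Omp and Shisa3. After LPS, Omp held in 2 of 12 fits with a library left out (highest adjusted p 0.104, without wild type replicate 3) and Shisa3 in 4 (0.176, without wild type replicate 4). Both missed the threshold with DESeq2 (adjusted p = 0.0922 and 0.0582) and limma-voom (0.620 and 0.168). Of the 112 genes lower after LPS, 81 (72.3%) were below 0 under PBS, against 49.9% of all genes tested, and their median under PBS was -0.10. Of the 33 autosomal genes higher after LPS, 20 were above 0 under PBS. Across the 145 genes the differences under PBS and after LPS had Pearson's r = 0.894 and Spearman's rho = 0.463, and across the 136 not called under PBS r = 0.651 and rho = 0.361. These are descriptions across genes, which are not independent, and all autosomal genes together gave r = 0.330 and rho = 0.029.

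**Figure D5:**
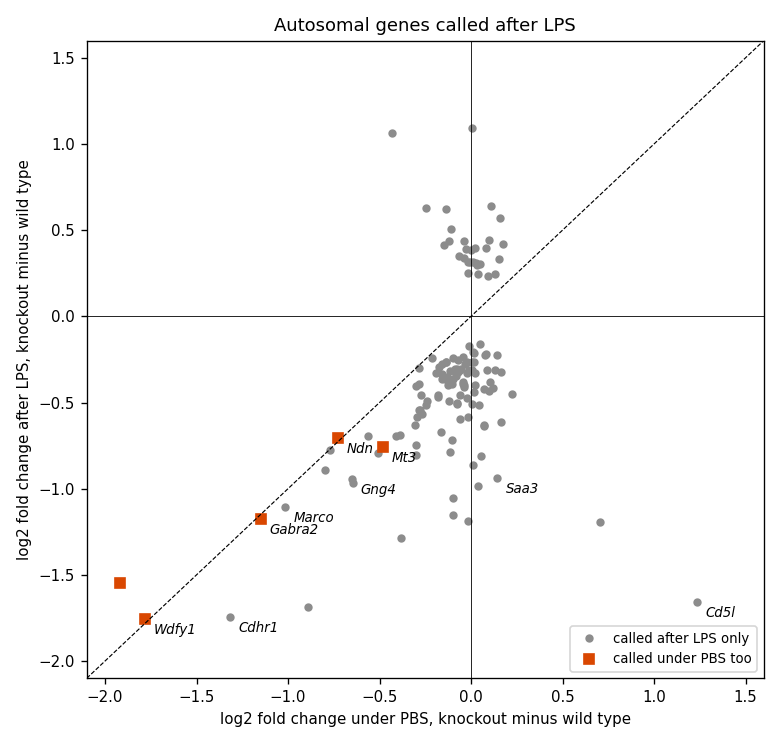
Each point is an autosomal gene called after LPS, with its log2 fold change between genotypes under PBS on the horizontal axis and after LPS on the vertical axis, and the dashed line marks equal differences. Of 145 genes 139 are shown, 6 lying outside the axes. Wdfy1, Gabra2 and Ndn lie on the line, and most other genes called lower lie below it, near 0 under PBS.

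A gene can pass after LPS and not under PBS without the difference between the contrasts being shown. The interaction tested that difference, and Cybb was the only one of 13890 genes called in it (0.0072%). For the autosomal genes edgeR called 0, with 1360 at an unadjusted p under 0.05 and a lowest adjusted p of 0.053, while DESeq2 called 10 genes and limma-voom 1, Cybb included. Wild type replicates 1 and 2 bear on this count: without replicate 1 it was 17, without replicate 2 it was 7, and without both it was 228. For Vwf the interaction was -0.28 ± 0.20 (adjusted p = 0.676), for Lyz2 -0.51 ± 0.28 (adjusted p = 0.57) and for Esam -0.43 ± 0.13 (adjusted p = 0.276). With all 24 libraries, a dependence on LPS was thus not shown for these genes.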

How the data were processed

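Libraries of the left brain hemisphere were made from 100 ng of RNA with a 3′ tag kit, per the labels' protocols. The deposited table holds raw counts per gene for each of 24 libraries. The submitters' processing notes name bcl2fastq, STAR 2.7.3a, featureCounts, Subread 2.0.0, R 3.6.1, DESeq2 1.26.0 and build mm10. The annotation release, the strand setting and the treatment of reads shared by gene copies are stated in no source used here, so reads of overlapping genes and pseudogenes are uncertain. Gene names and positions came from GENCODE M21 (GRCm38), which held 55240 of 55421 identifiers.

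Counts were fitted with edgeR 4.0.16 (R 4.3.3) by the quasi-likelihood F test over all 24 libraries, with TMM scaling, a filter at a minimum count of 10, 1 mean per group and 20 residual degrees of freedom. Adjusted p are Benjamini-Hochberg values over 14380 genes, and genes under 0.05 were called. SE is the fold change divided by the square root of F. Alternatives were DESeq2 1.42.0, limma-voom (limma 3.58.1), other scaling and filters, a replicate block, and libraries left out. In simulated counts for the contrast after LPS, with changes set only in well-covered genes, the fit recovered 96% of changes of -1 and 66% of -0.5. It recovered 78% of changes of 0.5 and 100% of changes of 1. Simulated counts were drawn independently, so no library stood apart as some wild type LPS libraries did, and these shares need not hold here. The interaction was not simulated.

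The naming rule took Cybb and its partners, the 15 largest rises and 15 largest falls among called autosomal genes with a mean of at least 2 CPM and all 6 knockout libraries on one side of the wild type mean, and called members of gene lists. Some genes that the rule allows, and results that need them, are left out of the text. The members and lists were chosen with earlier results of these data known. Same-numbered LPS libraries of the 2 genotypes were hardly related (correlations of deviations -0.00146 to 0.0837).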

Additional observations from a re-analysis of the deposited data

Results flagged for a closer look

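The genotype difference of Cybb itself differed between PBS and LPS, with an interaction of -3.90 on the log2 scale.

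Among 130 sets of 6 libraries (65 reported genes in each LPS group), 10 had a single library far from the rest, where chance flags about 1 in 20. Knockout replicate 4 stood alone in Gh (1655 CPM) and Pomc (276 CPM). Wild type replicate 1 stood alone in Gh (28.1 CPM) and Pomc (15.4 CPM), and was the highest of its group in Gabra2 (123 CPM), Scd1 (109 CPM) and Vwf (62.8 CPM). Knockout replicate 1 was far above the others in C3 (26.2 CPM) and Gstm1 (201 CPM), and knockout replicate 5 in Esam (62.7 CPM).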

How the results depend on the processing

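Cybb kept its direction and its call in every alternative. For the 59 autosomal genes named and called, the other settings gave 1172 values with an adjusted p: 970 kept direction and call, 201 kept direction and missed the call, and 1 turned, that of Pomc, which ranged from -0.12 without knockout LPS replicate 4 to 3.52 without wild type LPS replicate 1. Counts of genes higher, lower, called under PBS and called in the interaction were 34, 112, 17 and 1. They were 155, 374, 33 and 228 without wild type LPS replicates 1 and 2, and 87, 190, 81 and 58 with no filter on low counts. Without knockout LPS replicate 4, 20 were higher and 3 were called in the interaction. DESeq2 called 10 in the interaction, and a fit of the PBS libraries alone called 30 under PBS. Leaving out 1 library at a time gave 16 to 68 higher, 52 to 208 lower, 11 to 29 under PBS and 1 to 17 in the interaction. The causes were not tested.

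With the replicate number as a replicate block, 64 genes were higher, 196 lower, 36 called under PBS and 5 in the interaction, and none of the 59 named calls was lost. Same-numbered LPS libraries of the 2 genotypes were hardly correlated. Over all pairs of groups, correlations of same-numbered libraries ran from -0.0766 to 0.165. Correlations over all genes cannot exclude a shared factor, and what the replicate numbers stand for was not tested.

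Genes at a few CPM carry large errors at these depths. Leaving out wild type replicates 1 and 2 was decided with their values known, so those counts do not weigh as independent evidence.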
